A study of Rattus norvegicus with 36 samples.

Results

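In RNA sequencing of cultured rat alveolar macrophages, 10 genes that mark specialised epithelial cells of the airways and alveoli were followed. They were chosen by symbol: Scgb1a1, Muc4 and Clca4l of the airway lining, Aqp5 and Ager of alveolar type 1 cells, the lung transcription factor Nkx2-1 (listed as Nkx2.1), and the surfactant genes Sftpc, Sftpb, Sftpd and Sftpa1. All 10 are among the 23487 genes listed, and 7 of them are among the 14498 genes with enough counts to test. Sftpc, Sftpb and Sftpa1 were too low.

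The cells were primary alveolar macrophages of male F344/HanZtmRj rats, an inbred strain, with no genetic change. Culture in DMEM supplemented with fetal bovine serum lasted 5 days, and exposure to particles 4 days. The carbon black was Printex90, and the other particles, all titanium dioxides, were named G1-1, G3-1 and Bayertitan. Each of the 4 particles has its own control cultures, a loading named non-overload and a loading named overload, with 3 libraries in each of the 12 groups and 36 libraries in all. The doses behind the 2 loadings and the ages of the rats are not given in the sources used here. The libraries are labelled biological replicates, but nothing says that they came from separate animals, so p-values measure the spread between libraries, part of which may be technical.

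The lung surface is lined by cell types with separate tasks. Club cells of the conducting airways secrete the small protein encoded by Scgb1a1, and tethered mucins such as that of Muc4 coat the surface beside cilia. Flat alveolar type 1 cells carry the gas exchange surface and hold much of the lung's Ager product, and cuboidal type 2 cells make surfactant. NKX2-1 is needed for lung formation and activates surfactant genes and Scgb1a1 in epithelial cells. Macrophages are not known as a main source of these transcripts.

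Column totals of the deposited estimated counts ran from 22274300 to 37131500 per library. Levels are given in CPM, the counts-per-million unit, on library sizes scaled by the TMM method. This unit does not correct for gene length, so levels are compared between libraries and not between genes. A count of 3 in a library, the floor used here, corresponds to 0.0812 to 0.134 CPM. Macrophage transcripts were high in every library. Cd68, a lysosomal membrane protein gene, lay between 483 and 879 CPM and the lysozyme gene Lyz2 between 9915 and 16861 CPM, whereas Marco, a scavenger receptor gene known from alveolar macrophages of mice, did not pass 0.360 CPM and was at 0 in 5 libraries. General epithelial transcripts were present in every library too, with Epcam at 39.9 to 186 CPM, Krt8 at 312 to 631 CPM and Cdh1 at 129 to 540 CPM. The basal cell keratin gene Krt5 ranged from 4.78 to 91.4 CPM and Krt14 from 113 to 516 CPM. The fibroblast collagen gene Col3a1 had more than 1 count in 15 libraries and reached 656 CPM. In bulk RNA fewer cells of a type and less RNA per cell cannot be told apart, and this holds for every level below.

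The 250 bases before the transcription start are shown for 4 of the genes. Scgb1a1, Muc4 and Clca4l were taken as the airway genes among the 10, which were lower after Printex90 overload. Sftpb was taken because it stayed near 0 counts. The sequences are from RefSeq on build GRCr8, read 5′ to 3′ in the direction of the gene. Capitals mark each CTCAAG or its reverse complement CTTGAG, the core of sites that NKX2-1 is known to bind.
Scgb1a1: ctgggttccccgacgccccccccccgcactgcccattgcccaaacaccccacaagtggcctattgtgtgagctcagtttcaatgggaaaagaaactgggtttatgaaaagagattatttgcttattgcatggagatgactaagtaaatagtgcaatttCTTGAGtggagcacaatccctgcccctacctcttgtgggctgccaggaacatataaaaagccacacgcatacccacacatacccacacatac
Muc4: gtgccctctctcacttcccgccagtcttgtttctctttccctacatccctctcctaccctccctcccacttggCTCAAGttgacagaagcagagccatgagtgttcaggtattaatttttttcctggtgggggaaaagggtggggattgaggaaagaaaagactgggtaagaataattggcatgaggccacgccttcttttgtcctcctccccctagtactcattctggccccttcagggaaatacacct
Clca4l: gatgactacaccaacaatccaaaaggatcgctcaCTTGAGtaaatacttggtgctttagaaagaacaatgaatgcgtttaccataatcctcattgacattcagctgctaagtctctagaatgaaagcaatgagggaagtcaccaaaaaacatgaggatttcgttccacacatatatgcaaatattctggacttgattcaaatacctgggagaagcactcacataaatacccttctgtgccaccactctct
Sftpb: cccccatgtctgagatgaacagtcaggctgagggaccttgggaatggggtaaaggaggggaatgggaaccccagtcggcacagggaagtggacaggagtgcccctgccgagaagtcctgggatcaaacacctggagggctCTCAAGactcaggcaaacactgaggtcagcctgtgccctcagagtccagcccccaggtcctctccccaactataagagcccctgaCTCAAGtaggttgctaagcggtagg
These windows lie at chr1:215409687-215409936 on the minus strand for Scgb1a1, chr11:81558315-81558564 on the minus strand for Muc4, chr2:236506484-236506733 on the minus strand for Clca4l and chr4:105917338-105917587 on the plus strand for Sftpb. The match begins 92 bases before the start in Scgb1a1, 177 bases in Muc4 and 216 bases in Clca4l, and Sftpb has matches at 110 and 25 bases. RefSeq promoters were found for 8 of the 10 genes, and 5 of them hold CTCAAG on either strand, the fifth being that of Nkx2-1, against 13.3% of all 33469 promoters. Those of Aqp5, Ager and Sftpa1 hold none and are not shown, so every window shown is one with a match. Aqp5 was also lower after Printex90 overload. The genes Sftpc and Sftpd have no entry. CTCAAG was 1 of 8 letter strings searched on both strands after the levels were known. The shorter CAAG within it was in 7 of the 8 promoters and in 86.7% of all, and the longer CACTCAAG in those of Scgb1a1 and Nkx2-1 and in 0.986% of all. TATAAA, which overlaps none of these, was in 2 of the 8 (12.9% of all), TCAAGTG, which overlaps CTCAAG, in 1 (2.53%), TGTTTGC in 1 (4.16%), and CCTTGAG (4.17%), which contains CTTGAG, and TGTTTAC (3.21%) in 0. A match describes the letters only, and the Sftpb window with its 2 matches belongs to a gene with counts in 6 of 36 libraries.

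Scgb1a1, the club cell secretory protein gene, was detected in all 36 libraries, from 0.134 to 11.5 CPM. With Printex90 it was at 11.5, 6.38 and 3.97 CPM in control replicates 1 to 3, at 3.32, 1.70 and 5.99 CPM in the non-overload libraries and at 0.692, 0.134 and 1.21 CPM in the overload libraries. The overload libraries were all below both other groups, which overlapped each other. With Bayertitan the controls were at 7.43, 5.00 and 9.08 CPM, the non-overload libraries at 2.99, 1.31 and 4.61 CPM and the overload libraries at 0.396, 1.02 and 2.95 CPM. Here both exposed groups lay below the controls and overlapped each other. With G3-1 the controls were at 4.44, 2.44 and 1.25 CPM, the non-overload libraries at 0.360, 5.30 and 1.15 CPM and the overload libraries at 1.60, 0.306 and 0.361 CPM, and all 3 groups overlapped. With G1-1 the controls were at 3.08, 2.02 and 6.21 CPM, the non-overload libraries at 2.02, 0.961 and 1.63 CPM and the overload libraries at 2.71, 1.85 and 4.43 CPM. The G1-1 overload libraries overlapped their controls. The control means, highest first, were 7.27 ± 3.83 CPM for Printex90, 7.17 ± 2.05 for Bayertitan, 3.77 ± 2.18 for G1-1 and 2.71 ± 1.61 for G3-1 (SD, n = 3 each), with each neighbouring pair within its spread.

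Muc4, a membrane-tethered mucin gene, ranged from 0.180 to 13.2 CPM. Its Printex90 controls were at 13.2, 3.90 and 4.83 CPM, the non-overload libraries at 2.20, 3.85 and 2.90 CPM and the overload libraries at 1.88, 0.223 and 1.32 CPM. All overload libraries were below all controls, and control replicate 1 stood well above the other 2 controls. With G1-1 the order was the opposite, since controls at 0.398, 3.37 and 3.78 CPM all lay below overload libraries at 4.07, 8.43 and 4.31 CPM, with the non-overload libraries at 2.91, 1.29 and 2.09 CPM. With G3-1 the gene was low throughout, at 1.03, 0.777 and 0.821 CPM in controls, 0.180, 1.00 and 1.41 CPM in non-overload and 0.214, 1.09 and 0.397 CPM in overload libraries. The Bayertitan controls at 2.05, 0.769 and 3.39 CPM overlapped both the non-overload libraries at 1.02, 0.723 and 0.286 CPM and the overload libraries at 0.288, 0.441 and 1.98 CPM.

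Clca4l belongs to the CLCA family, which is linked to mucus and chloride transport. It was at 30.9, 11 and 23.5 CPM in the Printex90 controls, at 11.9, 11.1 and 5.76 CPM in the non-overload libraries and at 3.77, 1.92 and 3.85 CPM in the overload libraries. The overload libraries were below every other Printex90 library. With Bayertitan the controls at 5.66, 7.13 and 10.8 CPM lay above the non-overload libraries at 3.52, 1.07 and 1.00 CPM and the overload libraries at 1.62, 1.90 and 3.18 CPM. With G3-1 the overload libraries at 0.463, 0.961 and 0.505 CPM were below the controls at 2.90, 5.23 and 1.57 CPM, and the non-overload libraries at 0.683, 4.16 and 2.16 CPM overlapped both. With G1-1 the overload libraries at 13.2, 12.9 and 15.1 CPM overlapped the controls at 1.95, 12.3 and 13.5 CPM, and the non-overload libraries were at 11.7, 3.48 and 12.7 CPM. In GRCr8 the gene is overlapped by 2 long non-coding RNA genes and lies beside its relative Clca5. Its reads could be divided among these, and 28 of its 36 estimated counts were not whole, so its level is uncertain.

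**Figure D1:**
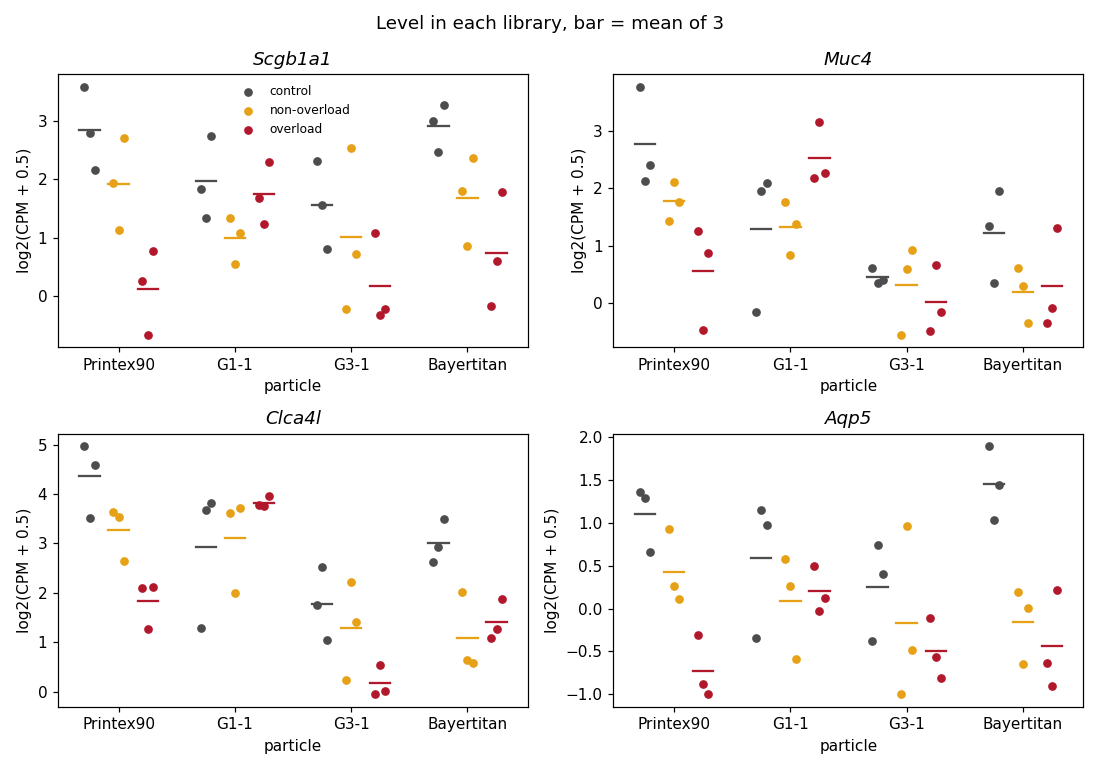
Levels of Scgb1a1, Muc4, Clca4l and Aqp5, as log2 of CPM plus 0.5 on the vertical axis, in each of the 36 libraries by particle and loading. Points are libraries and bars are means of 3. For all 4 genes the Printex90 overload points lie below the Printex90 control points, and for Muc4 the G1-1 overload points lie above the G1-1 control points.

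Aqp5 encodes a water channel of the apical membrane of type 1 cells and glands. It was scarce, with 840 counts over all libraries, no more than 3.22 CPM and 2 libraries at 0. The Printex90 controls were at 2.06, 1.95 and 1.08 CPM, the non-overload libraries at 1.40, 0.698 and 0.580 CPM and the overload libraries at 0.308, 0.0446 and 0 CPM. Over the 3 overload libraries this is 9 counts in all, against 143 in the controls. The Bayertitan controls at 3.22, 1.54 and 2.21 CPM were above the non-overload libraries at 0.644, 0.138 and 0.501 CPM and the overload libraries at 0.144, 0.0339 and 0.660 CPM. With G3-1 and G1-1 the overload libraries, at 0.0721 to 0.428 and 0.481 to 0.915 CPM, overlapped their controls, at 0.271 to 1.17 and 0.290 to 1.72 CPM. The non-overload libraries covered 0 to 1.45 CPM with G3-1 and 0.166 to 0.993 CPM with G1-1.

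Ager encodes the receptor for advanced glycation end products, abundant on type 1 cells. It lay between 1.85 and 13.6 CPM, a narrower range than those of the airway genes. The Bayertitan controls were at 8.85, 9.34 and 13.6 CPM, the non-overload libraries at 6.93, 3.27 and 8.05 CPM and the overload libraries at 3.53, 3.53 and 7.18 CPM. Both exposed groups were below all controls and overlapped each other. The Printex90 controls at 5.50, 6.53 and 3.44 CPM overlapped the overload libraries at 2.84, 2.01 and 4.20 CPM. The G1-1 controls at 5.07, 4.14 and 4.81 CPM were above the overload libraries at 3.63, 1.85 and 2.65 CPM. The G3-1 controls at 5.90, 6.15 and 5.07 CPM overlapped the overload libraries, of which replicate 1 was at 5.60 CPM and the others at 2.53 and 2.45 CPM. In the controls the mean was 10.6 ± 2.60 CPM for Bayertitan, then 5.71 ± 0.565 for G3-1, 5.16 ± 1.57 for Printex90 and 4.67 ± 0.476 for G1-1 (SD, n = 3 each). The Printex90 controls overlapped those of G3-1 and of G1-1. The G3-1 controls did not overlap those of G1-1, though the nearest library of each was at 5.07 CPM, and all Bayertitan controls were above all other controls. Non-overload libraries lay at 3.13 to 4.72 CPM with Printex90, 2.77 to 3.97 CPM with G1-1 and 3.78 to 6.75 CPM with G3-1. In GRCr8 its neighbours Rnf5 and Pbx2 do not overlap it.

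Nkx2-1 was between 6.24 and 31.9 CPM. The Bayertitan controls were at 25.5, 23.0 and 31.9 CPM, the non-overload libraries at 22.5, 9.63 and 15.8 CPM and the overload libraries at 11.1, 12 and 20.5 CPM. The Printex90 controls at 22, 19.3 and 19.2 CPM were above the overload libraries at 16.6, 6.24 and 15 CPM, and the G3-1 controls at 21.9, 17.8 and 17.5 CPM above the overload libraries at 11.8, 11.2 and 8.37 CPM. The G1-1 controls at 13.7, 15.3 and 17.6 CPM and overload libraries at 13.4, 12.8 and 13.1 CPM were also apart, by little. With every particle, then, the overload libraries lay below all of their own controls. Of all tested genes 12.6% had this order with Printex90, 13.2% with G1-1, 9.04% with G3-1 and 14.2% with Bayertitan. With G1-1 the log2 fold change of Nkx2-1 was -0.24 (edgeR, adjusted p = 0.784). Non-overload libraries were at 12.5 to 22.5 CPM with Printex90, 10.5 to 14.1 CPM with G1-1 and 9.10 to 22.2 CPM with G3-1. Of its 36 estimated counts 36 were not whole, and a long non-coding RNA gene overlaps Nkx2-1 in GRCr8. Without a stated strand setting these reads cannot be told apart.

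The surfactant genes were near or at 0. Sftpc, the surfactant protein found in type 2 cells alone, had 0 counts in all 36 libraries, which together hold 1019140000 counts. Sftpb, needed for the surfactant film, had 11 counts in 6 libraries and 0 in the other 30, with no more than 4 counts in a library. Sftpa1, a collectin that binds microbes, had 4 counts in 3 libraries and 0 in the other 33. At this depth a gene at 0 in a library is below the floor of 0.0812 to 0.134 CPM. Sftpd, the collectin that club cells make too, was found in all libraries but at 2 to 27 counts, or 0.0892 to 0.781 CPM. Its Printex90 controls at 0.145, 0.191 and 0.185 CPM were the lowest control group and the G3-1 controls at 0.731, 0.671 and 0.678 CPM the highest by mean. The G3-1 overload libraries at 0.321, 0.175 and 0.144 CPM and non-overload libraries at 0.288, 0.450 and 0.432 CPM were below the G3-1 controls. Printex90 overload libraries were at 0.231, 0.0892 and 0.350 CPM and overlapped their controls, while the non-overload libraries at 0.314, 0.279 and 0.309 CPM were all above them. With G1-1 and Bayertitan all 3 groups overlapped, between 0.158 and 0.781 CPM.

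**Figure D2:**
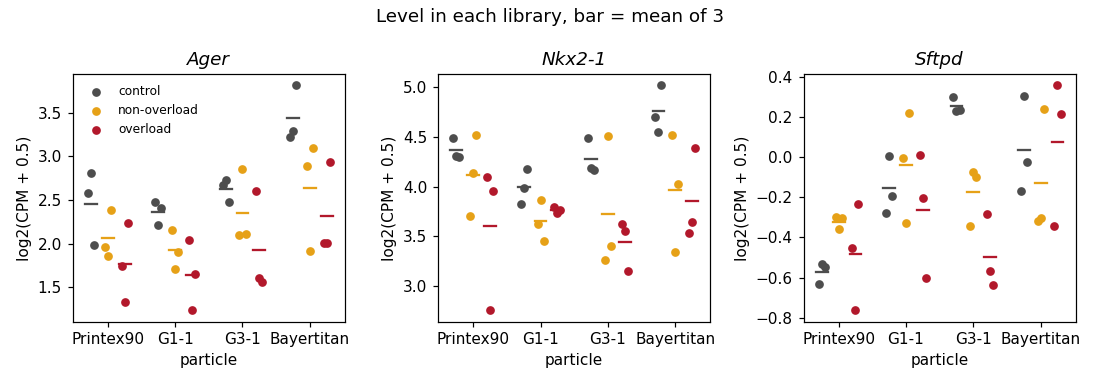
Levels of Ager, Nkx2-1 and Sftpd, as log2 of CPM plus 0.5 on the vertical axis, in each of the 36 libraries by particle and loading. Points are libraries and bars are means of 3. The Bayertitan controls are the highest group for Ager and Nkx2-1, and the Printex90 controls the lowest control group for Sftpd.

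Scgb1a1, Muc4, Clca4l and Aqp5 were lower after carbon black at the overload loading. Of the 7 tested genes 4 fell and 0 rose after Printex90 overload at an adjusted p under 0.05, by edgeR's quasi-likelihood test with Benjamini-Hochberg adjustment over all tested genes. Of all tested genes 2.84% fell and 5.15% rose in this comparison. Of 5 other tested airway secretory genes 0 were called, 2 had values below 0 and the median log2 fold change was 0.127. At an unadjusted p under 0.05 was 1 of them, against 25.2% of all tested genes. Scgb1a1 fell by 3.40 on the log2 scale (SE 0.87, adjusted p = 0.0167), a 10.5-fold lower level. Muc4 fell by 2.66 (SE 0.81, adjusted p = 0.0408), Clca4l by 2.77 (SE 0.64, adjusted p = 0.00929) and Aqp5 by 3.77 (SE 1.12, adjusted p = 0.0376). Ager, with a log2 fold change of -0.77 (adjusted p = 0.189), Nkx2-1 with -0.67 (adjusted p = 0.193) and Sftpd with 0.37 (adjusted p = 0.695) did not pass. For 5 of the 7 genes all overload libraries were below all controls, an order seen in 12.6% of all tested genes. Library totals without a scaling factor gave 681 lower and 494 higher genes in place of 412 and 746, with the same 4 genes called.

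The Printex90 calls did not hold without some single libraries. Over all tested genes the lower calls moved too, from 34 to 681 under the alternative fits against 412 in the model used. No member passed without control replicate 1 or without overload replicate 2, Muc4 and Aqp5 did not pass without overload replicate 3, and Aqp5 did not pass without control replicate 2. The values moved as well. Aqp5 was at -6.06 on the log2 scale without overload replicate 1, which left 1 count in the overload group, and at -3.19 without overload replicate 3. Scgb1a1 was at -4.09 without overload replicate 3 and -2.90 without control replicate 1, and Muc4 at -1.92 without control replicate 1. Clca4l moved less, between -3.09 and -2.43 over the fits without 1 library. When the 9 Printex90 libraries were fitted without the rest, only Clca4l passed, with adjusted p-values of 0.0546 for Scgb1a1, 0.0554 for Aqp5 and 0.0795 for Muc4. Without the libraries with fibroblast transcripts, which left 1 control that the fit assumes to vary like the other groups, only Clca4l passed, at -2.87 on the log2 scale (adjusted p = 0.00421). Col3a1 was above 1 count in 2 Printex90 controls and in 0 overload libraries, and the summed fibroblast markers were at 25.6 to 87.3 CPM in controls and 25.1 to 27.5 CPM after overload. The summed general epithelial markers were at 3105 to 4293 CPM in controls and 1864 to 3382 CPM after overload. With their mean as a covariate, a choice made after the data were seen, Clca4l passed at -1.90 (adjusted p = 0.0322) and Scgb1a1, at -2.29, did not (adjusted p = 0.0592). The part of either cell type in the results was not tested.

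Bayertitan overload gave differences of the same sign with fewer calls. Ager fell by 1.16 on the log2 scale (SE 0.36, adjusted p = 0.0436) and was the only member of the 7 to pass, where 4.1% of all tested genes fell and 5.74% rose. Aqp5 was at -3.06 (SE 1.01, adjusted p = 0.0518), Scgb1a1 at -2.31 (SE 0.81, adjusted p = 0.0629), Clca4l at -1.82 (SE 0.64, adjusted p = 0.0632) and Nkx2-1 at -0.89 (SE 0.32, adjusted p = 0.0714), 4 values just above the threshold. Muc4 was at -1.21 (adjusted p = 0.337) and Sftpd at 0.11 (adjusted p = 0.913). All overload libraries were below all controls for 5 of the 7 genes, against 14.2% of all tested genes. DESeq2 called 5 of them lower, namely Scgb1a1, Clca4l, Aqp5, Ager and Nkx2-1. Library totals without a scaling factor gave 1138 lower and 470 higher genes in place of 594 and 832, and called Aqp5 as well as Ager.

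The Ager call with Bayertitan did not hold without any single one of control replicates 1, 2 and 3 or overload replicates 1 and 2. Without overload replicate 3, the overload library highest in each of the 7 tested genes but Sftpd, 4 members passed, with Scgb1a1 at -3.34 and Aqp5 at -4.67 on the log2 scale. Over all tested genes the lower calls ran from 0 to 1138 under the alternative fits, against 594 in the model used. No member passed among the 9 Bayertitan libraries alone, without the libraries with fibroblast transcripts or when the mean of the general epithelial markers was a covariate, and 5 passed with the fibroblast marker mean as a covariate. Summed general epithelial markers were at 3203 to 3809 CPM in the controls and 1638 to 2991 CPM after overload, and summed fibroblast markers at 16.3 to 564 and 21.2 to 963 CPM. Their part was not tested. The neighbour Pbx2 fell by 0.20 (adjusted p = 0.0468) and Rnf5 was at -0.06 (adjusted p = 0.609) on the log2 scale.

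G3-1 overload gave lower values for all 7 tested genes, but none passed. In this comparison 0.0276% of all tested genes fell and 0.0897% rose. By edgeR 4 members had an unadjusted p under 0.05, against 12.2% of all tested genes, and DESeq2 called 0. These were Sftpd at -1.67 (SE 0.46, adjusted p = 0.182), Clca4l at -2.34 (SE 0.72, adjusted p = 0.237), Nkx2-1 at -0.87 (SE 0.33, adjusted p = 0.316) and Scgb1a1 at -1.82 (SE 0.83, adjusted p = 0.378). For Clca4l, Nkx2-1 and Sftpd all overload libraries lay below all controls, an order found in 9.04% of all tested genes. Their summed general epithelial markers were at 2257 to 2960 CPM in controls and 1627 to 2052 CPM after overload. Summed fibroblast markers were at 16.7, 23.2 and 1134 CPM in controls and 24.0, 1595 and 1760 CPM after overload, in rising order. Overload replicates 2 and 3, the ones with Col3a1 counts, were the lower overload libraries for Scgb1a1, Aqp5, Ager, Nkx2-1 and Sftpd. For Muc4 and Clca4l the lowest overload library was replicate 1, at 0.214 and 0.463 CPM. The part of either cell type was not tested.

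G1-1 overload called 0 of the 7, with 1 at an unadjusted p under 0.05 by edgeR (16.8% of all tested genes) and 0 called by DESeq2. Of all tested genes 2.71% fell and 2.3% rose. Muc4 was at 1.15 on the log2 scale (95% interval -0.41 to 2.71, adjusted p = 0.496) and Clca4l at 0.57 (-0.67 to 1.80, adjusted p = 0.715). Scgb1a1 was at -0.33 (-1.92 to 1.26, adjusted p = 0.893), Aqp5 at -0.80 (-2.72 to 1.12, adjusted p = 0.749), and Ager, the gene with the unadjusted p under 0.05, at -0.78 (-1.54 to -0.03, adjusted p = 0.272). The summed level of the 10 genes was 38.4 to 40.4 CPM after G1-1 overload and 24.8 to 47.8 CPM in the controls. It was 10.7 to 26.4 against 49.3 to 85.3 CPM with Printex90, 17.3 to 37.1 against 47.5 to 71.5 CPM with Bayertitan and 12.3 to 20.4 against 27.9 to 37.2 CPM with G3-1. Summed general epithelial markers with G1-1 were at 2396 to 3698 CPM in controls and 2882 to 3116 CPM after overload, and summed fibroblast markers at 23.0 to 153 and 23.1 to 1155 CPM. Summed macrophage markers were at 16611 to 22038 CPM in controls and lower, at 14245 to 16044 CPM, after overload. Most of this sum is Lyz2, which fell by 0.41 on the log2 scale (edgeR, adjusted p = 0.0393). Adgre1 fell by 0.99 (adjusted p = 0.00155). Of 10 tested macrophage genes 6 had values below 0 and 4 were called lower. The part of these cell types was not tested.

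At the non-overload loading 0 members were called with any particle by edgeR or DESeq2. Of all tested genes 0% were called with Printex90, G3-1 and Bayertitan, and with G1-1 0.0621% were called. With Bayertitan 4 members had an unadjusted p under 0.05, against 16.2% of all tested genes, namely Clca4l at -2.08 (SE 0.65, adjusted p = 0.218), Aqp5 at -2.44 (adjusted p = 0.24), Ager at -0.80 (adjusted p = 0.274) and Nkx2-1 at -0.75 (adjusted p = 0.264). With Printex90, G1-1 and G3-1 0 members had one, against 4.33%, 6.38% and 5.39% of all tested genes. For 5 of the 7 genes all Bayertitan non-overload libraries were below all controls, against 10.7% of all tested genes. Summed general epithelial markers were at 1815 to 2993 CPM in these libraries and 3203 to 3809 CPM in the controls, with 21 of 21 values below 0, 17 at an unadjusted p under 0.05 and 0 called. Summed fibroblast markers were at 20.6, 855 and 3491 CPM against 16.3, 16.3 and 564 CPM, in rising order. The part of either was not tested.

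**Figure D3:**
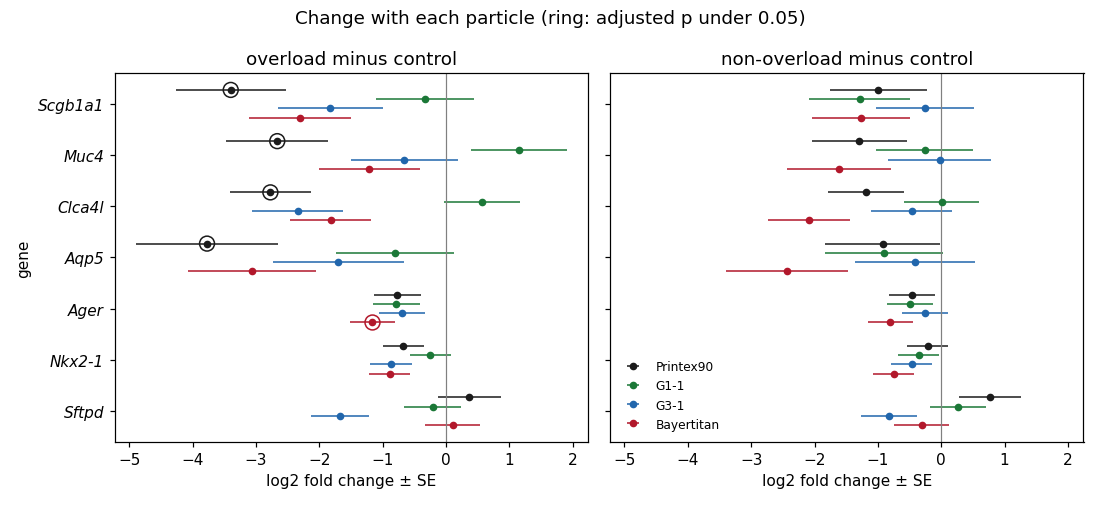
Log2 fold changes of the 7 tested genes (horizontal axis, with standard errors) for overload against control on the left and non-overload against control on the right, coloured by particle. Rings mark an adjusted p under 0.05: 4 genes with Printex90 overload and Ager with Bayertitan overload. In the overload panel Muc4 and Clca4l with G1-1 are the airway values above 0.

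Averaged over the 4 particles, 5 of the 7 genes fell with overload and 0 rose, where 12.1% of all tested genes fell and 11.9% rose. Aqp5 fell by 2.33 on the log2 scale (SE 0.51, adjusted p = 0.00188), Scgb1a1 by 1.96 (SE 0.41, adjusted p = 0.00117) and Clca4l by 1.59 (SE 0.32, adjusted p = 0.00097). Ager fell by 0.85 (SE 0.18, adjusted p = 0.00153) and Nkx2-1 by 0.67 (SE 0.16, adjusted p = 0.00393). Muc4 at -0.84 (adjusted p = 0.125) and Sftpd at -0.35 (adjusted p = 0.299) did not pass. The median of the 7 was -0.85 and that of all tested genes 0.0013. Library totals gave 2966 lower and 1086 higher genes in place of 1753 and 1731, and called 5 members too. Without the 15 libraries with fibroblast transcripts only Clca4l passed, at -1.79 (adjusted p = 0.00159), with 21 libraries and 9 residual degrees of freedom left in place of 24. There Aqp5 was at -2.04 (adjusted p = 0.0527), Scgb1a1 at -1.41 (adjusted p = 0.0644), Nkx2-1 at -0.56 (adjusted p = 0.0813) and Ager at -0.50 (adjusted p = 0.117). When the general epithelial marker mean was a covariate 0 did, the values being -1.23 for Aqp5 (adjusted p = 0.08), -1.08 for Scgb1a1 (adjusted p = 0.0613), -0.77 for Clca4l (adjusted p = 0.125), -0.54 for Ager (adjusted p = 0.0709) and -0.29 for Nkx2-1 (adjusted p = 0.167).

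The average over the non-overload groups called 0 members, with 5 at an unadjusted p under 0.05 by edgeR (21.6% of all tested genes) and 0 called by DESeq2, where 2.75% of all tested genes were called. Clca4l was at -0.93 (SE 0.31, adjusted p = 0.0877) and Ager at -0.50 (SE 0.18, adjusted p = 0.11). Without G3-1 non-overload replicate 2, which had 5.30 CPM of Scgb1a1 against 0.360 and 1.15 CPM in the rest of its group, 5 members passed. Without G1-1 control replicate 1 or Bayertitan non-overload replicate 1 the number was 1. Over all tested genes the lower calls ran from 0 to 513 under the alternative fits, against 174 in the model used. Overload set against non-overload directly called 0 as well by both tools (2 at an unadjusted p under 0.05, against 11.4% of all tested genes, with 0.91% of all tested genes called). The difference was -1.01 for Scgb1a1 (95% interval -1.85 to -0.17, adjusted p = 0.308) and -1.17 for Aqp5 (-2.24 to -0.09, adjusted p = 0.378).

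Whether the overload effects differed between the 4 particles was asked by an F test in the same model. No member passed, with 3 at an unadjusted p under 0.05 (17.5% of all tested genes), and 1.72% of all tested genes were called. The adjusted p was 0.1 for Clca4l, 0.185 for Muc4 and 0.207 for Sftpd. Clca4l passed by DESeq2 (adjusted p = 0.0419) and with the fibroblast marker mean as a covariate (adjusted p = 0.0431). The 4 control groups, which received no particle, differed in 2 members, Clca4l (adjusted p = 0.036) and Sftpd (adjusted p = 0.0459), against 5.59% of all tested genes. Clca4l controls were at 21.8 ± 10.0 CPM for Printex90 and 3.23 ± 1.85 CPM for G3-1 (SD, n = 3 each), and Sftpd controls at 0.173 ± 0.025 and 0.693 ± 0.0325 CPM. Neither passed without Printex90 control replicate 1 or 3, G1-1 control replicate 2 or G3-1 control replicate 1 or 3, or without the libraries with fibroblast transcripts.

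Other epithelial lists were set beside these genes. On average over the particles 14 of 21 general epithelial genes fell with overload and 0 rose (median log2 fold change -0.52), among them Epcam at -0.57 (adjusted p = 0.0139) and Cdh1 at -0.47 (adjusted p = 0.0119). Of 7 tested basal cell genes 6 fell. The 3 with the smallest p were Krt14 at -0.76, Tp63, the basal cell transcription factor gene, at -1.27 and Krt5 at -1.56. Of 10 further type 1 cell genes 7 fell and 0 rose, with the anchoring protein gene Akap5 at -1.45 and Hopx at -0.49. Of 9 further type 2 cell genes 1, Cldn18, fell and 2, Etv5 and Lamp3, rose. Of 5 tested airway secretory genes 0 were called by edgeR (0 at an unadjusted p under 0.05), and 1 of 6 ciliated cell genes, Tekt1, fell. All medians stand beside a median of 0.0013 over all tested genes, of which 12.1% fell and 11.9% rose in this average. For Printex90 overload the general list had 0 of 21 called, with all 21 values below 0 and 7 at an unadjusted p under 0.05, against 25.2% of all tested genes. For Bayertitan overload 4 of 21 fell, together with 7 of 10 type 1 cell genes, against 4.1% of all tested genes. The macrophage list, for comparison, had 5 higher and 2 lower of 10 in the average, with Cd68 rising by 0.28 and Csf1r falling by 0.21 on the log2 scale. By particle the edgeR counts were 4 of 10 higher and 0 lower with Printex90 and with Bayertitan, 4 lower and 0 higher with G1-1, and 0 called with G3-1 (0 at an unadjusted p under 0.05). Of all tested genes 5.15% rose with Printex90, 5.74% rose with Bayertitan and 2.71% fell with G1-1. With G3-1 0.117% of all tested genes were called and 12.2% had an unadjusted p under 0.05. The F test between the overload effects passed for Fabp4 (adjusted p = 0.00813), Lyz2 (adjusted p = 0.0435) and Adgre1 (adjusted p = 0.049).

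Other genes of surfactant-making and secretory cells were uneven in level. Abca3, the lamellar body lipid transporter gene, was at 174 to 246 CPM in libraries without Sftpc counts. Napsa, an aspartic protease gene of type 2 cells, was at 88.6 to 136 CPM. Etv5, Lpcat1 and Dram1 lay between 31.6 and 165 CPM and Lamp3 between 1.59 and 6.33 CPM. The other listed type 2 cell genes were low. Slc34a2 was at 0 to 0.764 CPM, Sfta2 at 0.144 to 2.41, Cldn18 at 0.0332 to 2.06 and Pgc at 0 to 0.154 CPM. Of the other club cell genes, Scgb3a2 had 3 counts over all libraries and Cyp2f4 had 38, while Scgb3a1 lay between 0.205 and 1.07 CPM. The goblet cell gene Tff2 had 0 counts and Agr2 had 1. Besides Scgb3a1, the secretory genes with enough counts to test were Fcgbp, Muc1, Clca1 and Spdef. Fcgbp was at 1.83 to 4.55 CPM, Muc1 at 0.0541 to 0.781, Clca1 at 0 to 1.01 and Spdef at 0 to 0.509 CPM.

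The 7 tested genes fell into partly separate patterns across libraries. Likeness was measured by Spearman's rho of log2 of CPM plus 0.5 over the 36 libraries, which share their groups and depth, and is a description only. Muc4 and Clca4l were the most alike pair (rho 0.89, and 0.71 after removal of group means). Scgb1a1 was closest to Nkx2-1 (0.79), and after removal of group means to Ager (0.81). Ager showed no likeness to Muc4 (-0.09) in spite of a value of 0.73 with Nkx2-1. With Epcam the values were 0.77 for Scgb1a1, 0.75 for Clca4l, 0.74 for Nkx2-1 and 0.70 for Muc4, and 0.37 for Ager and 0.02 for Sftpd. After removal of group means Ager was at 0.74 with Epcam, Nkx2-1 at 0.74, Scgb1a1 at 0.75, Clca4l at 0.62, Muc4 at 0.54 and Sftpd at 0.34, so the lower place of Ager held only with the group means kept. Against Cd68 they ran from -0.62 for Nkx2-1 and -0.59 for Scgb1a1 to -0.36 for Ager, with Sftpd apart at 0.04. Ager and its neighbour Pbx2 had 0.71 and Ager and Rnf5 0.34.

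Among all other tested genes the most alike to Scgb1a1 were Dnpep (rho 0.92), Cadm4 (0.91) and Loxl4 (0.89). Clca4l was most alike to Ccl6 (0.95), Tspan8 (0.94) and AC114233.2 (0.92), and Muc4 to Mall (0.88), the chloride channel gene Cftr (0.87) and Ephb2 (0.86). Nkx2-1 was most alike to Dact2 (0.93), Evpl (0.91) and Areg (0.91), Aqp5 to Anxa8 (0.89), Cdc42bpg (0.89) and Padi1 (0.88), and Ager to Ccdc80 (0.89), Slc39a8 (0.84) and Gramd2a (0.82). The highest values of Sftpd were lower, at 0.65 with Cpox, 0.62 with Bpnt1 and 0.61 with B4galt5.

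**Figure D4:**
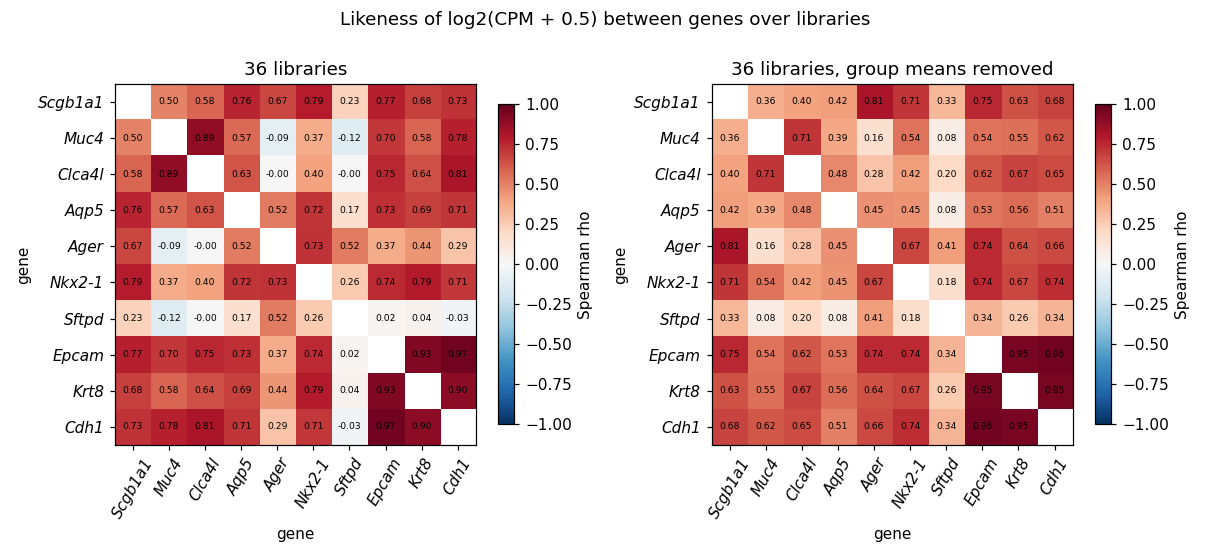
Spearman's rho of log2 of CPM plus 0.5 between the 7 tested genes and the general epithelial genes Epcam, Krt8 and Cdh1 over 36 libraries, on the left as measured and on the right with group means removed. Darker red is closer to 1. Muc4 and Clca4l form the closest pair of the 7 on the left (0.89), and Sftpd is near 0 with the general epithelial genes on the left but at 0.26 to 0.34 with them on the right.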

How the data were processed

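The values are estimated counts for each gene in each library, as deposited by the authors and not scaled. Per the submitters' processing notes Salmon, FastQC, MultiQC and the rat build Rnor_6.0 were used, with versions, annotation and strand setting not given in the sources used here. Per the labels' protocols, RNA was isolated on RNeasy columns with DNase, and libraries came from total RNA after removal of ribosomal RNA. Of the values 47.7% are not whole (tolerance 5e-04). Reads of near-identical or overlapping genes can be divided by a model, but the source of the fractions was not tested. Such a division would make values of gene families and overlapping genes uncertain.

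Counts were rounded, filtered with filterByExpr by group and normalised by TMM (factors 0.934 to 1.07). CPM were computed on those library sizes, and log2 values used a pseudocount of 0.5. In R 4.3.3 with edgeR 4.0.16 and limma 3.58.1, one quasi-likelihood model held 12 group means with 24 residual degrees of freedom, and 13 comparisons were tested, with Benjamini-Hochberg adjustment over all 14498 tested genes and a threshold of 0.05. Standard errors and 95% intervals come from this fit. Fold changes of genes with few counts depend on the fit's prior count. DESeq2 1.42.0 was an alternative, as were other scalings and filters, replicate blocks, fits of 9 libraries, fits without single libraries or without the 15 libraries with more than 1 Col3a1 count, and marker means as covariates. The scripts were tested on simulated data. No pair of libraries within a group differed by counting noise only. A chi-square statistic averaged over genes was 6.87 to 53.0 for the 36 pairs of the same group. This cannot exclude libraries prepared separately from the same RNA or culture. The floor of 3 counts covers counting error only.

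The members, marker lists and tests were chosen with earlier results of these data known. All 10 members are described. The lists cover general epithelial, basal, type 1, type 2, secretory, ciliated, macrophage, fibroblast, endothelial and mesothelial genes. From each list at most 3 called genes per comparison were to be named, by smallest p, along with fixed markers. Epcam and Cdh1, named with their tests, Hopx, Tp63, Etv5, Lamp3, Cldn18 and Csf1r were named in part after their values were seen. So were the type 2 and secretory genes given by level. For likeness the 3 genes with the highest rho were named. Muc5ac, Muc16, Sec14l3, Foxj1, Car4, Col1a2, Col6a3 and Pecam1 of these lists were not analysed here. RefSeq tables (GRCr8) matched all 10 members by symbol.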

Additional observations from a re-analysis of the deposited data

Results flagged for a closer look

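Muc4 had opposite orders with 2 particles at the overload loading, with every Printex90 overload library below its controls and every G1-1 overload library above its controls. The log2 fold change was -2.66 with Printex90 (called) and 1.15 with G1-1 (not called, adjusted p = 0.496), a difference of 3.81. The F test over the overload effects of all 4 particles did not pass for Muc4 (edgeR, adjusted p = 0.185), and this pair alone was not tested. Of all tested genes 12.6% had all Printex90 overload libraries below all controls, and 11% had all G1-1 overload libraries above all controls.

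Sftpd had opposite orders at the non-overload loading, where every Printex90 library was above its controls (log2 fold change 0.78, 4 to 6 counts in a control) and every G3-1 library below its controls (-0.82). Neither value was called (edgeR, adjusted p = 0.996 and 0.939), and the difference of -1.60 was not tested. Of all tested genes 5.63% had all Printex90 non-overload libraries above all controls, and 4.75% had all G3-1 non-overload libraries below all controls.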

How the results depend on the processing

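Of 1942 values recomputed under alternatives 60 lost and 27 gained a call, 0 called values turned their sign, and 58 of 1572 estimates had the opposite sign without a call. For Printex90 overload (4 members lower), 1 was lower in the 9 libraries alone, without the fibroblast libraries and with the epithelial covariate, and 0 to 4 without 1 library. For Bayertitan overload (1 lower) the number was 2 with library totals, 0 with no filter, in the 9 libraries alone, without the fibroblast libraries and with the epithelial covariate, and 5 with the fibroblast covariate or DESeq2, and 0 to 4 without 1 library. The average overload effect (5 lower) had 1 without the fibroblast libraries, 0 with the epithelial covariate and 5 to 6 without 1 library, and the average non-overload effect 0 to 5. Control groups (2 called) had 1 with no filter or the epithelial covariate, 0 without the fibroblast libraries and 0 to 2 without 1 library, and the overload F test 1 with the fibroblast covariate or DESeq2. The cause was not tested. Column totals turned the sign of Clca4l with G1-1 non-overload, which was not called.

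No steady pairing of the libraries by replicate number was seen: 15 of 36 correlations of deviations passed 0.1 (range -0.71 to 0.50), and 15 of 36 were best with their own number. Because the deviations are from means of 3 libraries, this check cannot exclude a pairing. The replicate block within each particle gave 3 lower members with Bayertitan overload, and the replicate block over all libraries gave 0 members in the control comparison, where the block within particles could not be fitted. The replicate blocks changed no other count of members.

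Over all genes, calls under the alternatives ran from 34 to 681 lower and 14 to 976 higher for Printex90 overload (412 and 746 in the model used), 0 to 1138 and 0 to 1190 for Bayertitan (594 and 832), 48 to 659 and 92 to 512 for G1-1 (393 and 334), and 0 to 26 and 0 to 51 for G3-1 (4 and 13). They ran from 341 to 2966 lower and 538 to 1932 higher for the average overload effect (1753 and 1731). For the average non-overload effect the ranges were 0 to 513 and 1 to 425 (174 and 225). Calls ran from 41 to 1470 for the control groups (810) and 12 to 635 for the overload F test (249). Changes in the number of members called thus stand beside changes over all genes. Depth limits Sftpb, Sftpa1 and Sftpc, at or under the floor in nearly all libraries, and Aqp5 and Sftpd, which had few counts.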

Other observations

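The remaining lists were small. In the average overload effect 12.1% of all tested genes fell and 11.9% rose. Of 4 tested mesothelial genes 2 fell in the average overload effect, Msln at -0.74 (edgeR, adjusted p = 0.00375) and Upk1b at -0.999 (adjusted p = 0.0117) on the log2 scale. Msln, the mesothelin gene, was at 71.5 to 427 CPM over the 36 libraries. Of 7 tested fibroblast genes 1, the decorin gene Dcn, rose by 0.54 (adjusted p = 0.0056). Of 5 tested endothelial genes 1, the cadherin gene Cdh5, rose by 0.49 (adjusted p = 0.000431) and 1, Ptprb, fell by 0.80 (adjusted p = 0.0402).

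At the non-overload loading 0 members were called on average over the particles. Of all tested genes 1.2% fell there, and of 10 further type 1 cell genes 3 fell. These were Igfbp2 at -1.14 (edgeR, adjusted p = 0.0499), Akap5 at -1.02 (adjusted p = 0.0395) and Gprc5a at -0.52 (adjusted p = 0.0477). In the same comparison 0 of 21 general epithelial genes were called. At an unadjusted p under 0.05 were 12 of them, against 21.6% of all tested genes.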
